A study of Homo sapiens with 4 samples.

Results

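Integrins and the adaptor proteins of focal adhesions, the contacts by which cells grip their matrix, are described here across the 4 libraries of the study. They were taken by symbol from a list of 35 genes picked for their known roles, 17 integrin subunits and 18 adaptors, out of 26255 genes in the deposited files. All 35 symbols were found. MRC5, an established line of fetal human lung fibroblasts, was profiled by RNA sequencing 48 h into the experiment, with 2 libraries of cells treated with miRs (microRNAs, short RNAs that lower matching messenger RNAs) and 2 libraries of control cells. All 4 were labelled wild type and normal. The labels do not name the microRNAs, and they call the control cells untreated although the series title speaks of a negative-control microRNA, so what the control cells received is not settled. Nothing says that replicates came from separate cultures. All values come from 1 cell line. The p-values therefore rest on how far 2 libraries of a group lie apart, in the gene and across other genes, a spread that may be technical.

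Integrins are the receptors by which fibroblasts hold on to collagen, fibronectin and laminin, and the adaptors studied with them build the focal adhesion on the inner side of the membrane. Each receptor pairs an alpha with a beta subunit, and the alpha subunit largely sets which matrix protein is bound. The beta tail recruits talin and kindlin, then a scaffold of integrin-linked kinase, parvin and PINCH proteins, and signalling proteins around focal adhesion kinase, paxillin and the CAS family, which pass adhesion on to the actin cytoskeleton and to small GTPases. In lung fibroblasts these receptors carry spreading, migration and the pull on collagen.

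Levels are FPKM, fragments scaled to transcript length and library size, which can be set side by side between genes. Between 11622 and 11781 genes per library reached 1 FPKM. The sequencing depth is unknown. All 10 fibroblast markers listed reached a mean of 1 FPKM and summed to 8330 and 12880 FPKM in miRs, against 12977 and 12083 FPKM in control, with COL1A1 and COL1A2 large parts of the sum. Of the 10, DCN, LUM, THY1, FN1 and VIM were lower in both miRs libraries than in either control, as were 30.0% of all tested genes. DCN was lower by the most, at 352 and 419 FPKM in miRs, against 963 and 1223 FPKM in control (log2 difference −1.50 ± 0.18, adjusted p = 0.0632 in limma). COL1A1, COL1A2, COL3A1, PDGFRA and PDGFRB overlapped. COL1A1 had a higher mean in miRs, at 1910 and 4742 FPKM, against 2337 and 2521 FPKM in control, and COL3A1 did too. The part of the fibroblast markers in the members' levels was not tested. The 7 blood markers summed to at most 0.280 FPKM in any library. The miRs pair agreed less well than the control pair: 725 of 11860 tested genes lay more than 1 apart on the log2(FPKM + 1) scale between the miRs libraries, and 71 between the controls. Among the 30 members that reached a mean of 1 FPKM, 4 lay that far apart in miRs (ITGA2, ITGA11, ITGAV and TNS3) and 0 in control. The other 5 members (ITGA8, ITGA9, ITGA10, ITGB4 and ITGB8) were below this minimum and were not tested. Because the minimum was a mean over both groups, a gene high in 1 group could pass through that group.

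The group split in opposite directions among the integrins and leaned lower among the adaptors. Of the 18 adaptors, 1 passed the test, CASS4, which was lower in miRs (limma on all tested genes, adjusted p under 0.05, a rule that called 0.245% of all 11860 genes). In a bulk sample, fewer cells of a type and less RNA per cell cannot be told apart, which holds for every level given here. Of the 12 integrins tested, 0 passed in limma, 6 had an unadjusted p under 0.05 (24.2% of all genes did), and the smallest adjusted p was 0.0656, for ITGA6. These 6 integrins were 3 higher and 3 lower in miRs. An unadjusted p under 0.05 was reached by 7 adaptors, all of them lower in miRs. Over all genes, 11.2% had such a p and were higher and 13.0% were lower. The groups did not overlap in 11 of the 12 integrins (5 higher and 6 lower in miRs) or in 13 of the 18 adaptors (3 higher and 10 lower). Over all tested genes 59.5% did not overlap, 29.5% higher and 30.0% lower. The calls depended on which pair of libraries gave the spread. With a miRs library left out it came from the control pair, and with a control left out from the miRs pair. Without miRs replicate 1, 4 integrins and 5 adaptors passed among 1653 genes, and without miRs replicate 2, 6 and 9 passed among 3746. Without either control, 0 integrins and 0 adaptors passed in limma, among 0 genes (replicate 1 left out) and 1 gene (replicate 2 left out). The median log2 difference, miRs minus control, was −0.14 over the tested integrins, −0.42 over the adaptors and −0.0020 over all genes. The median size of the difference, without its sign, was 0.91 for integrins, 0.44 for adaptors and 0.27 for all genes.

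**Figure D1:**
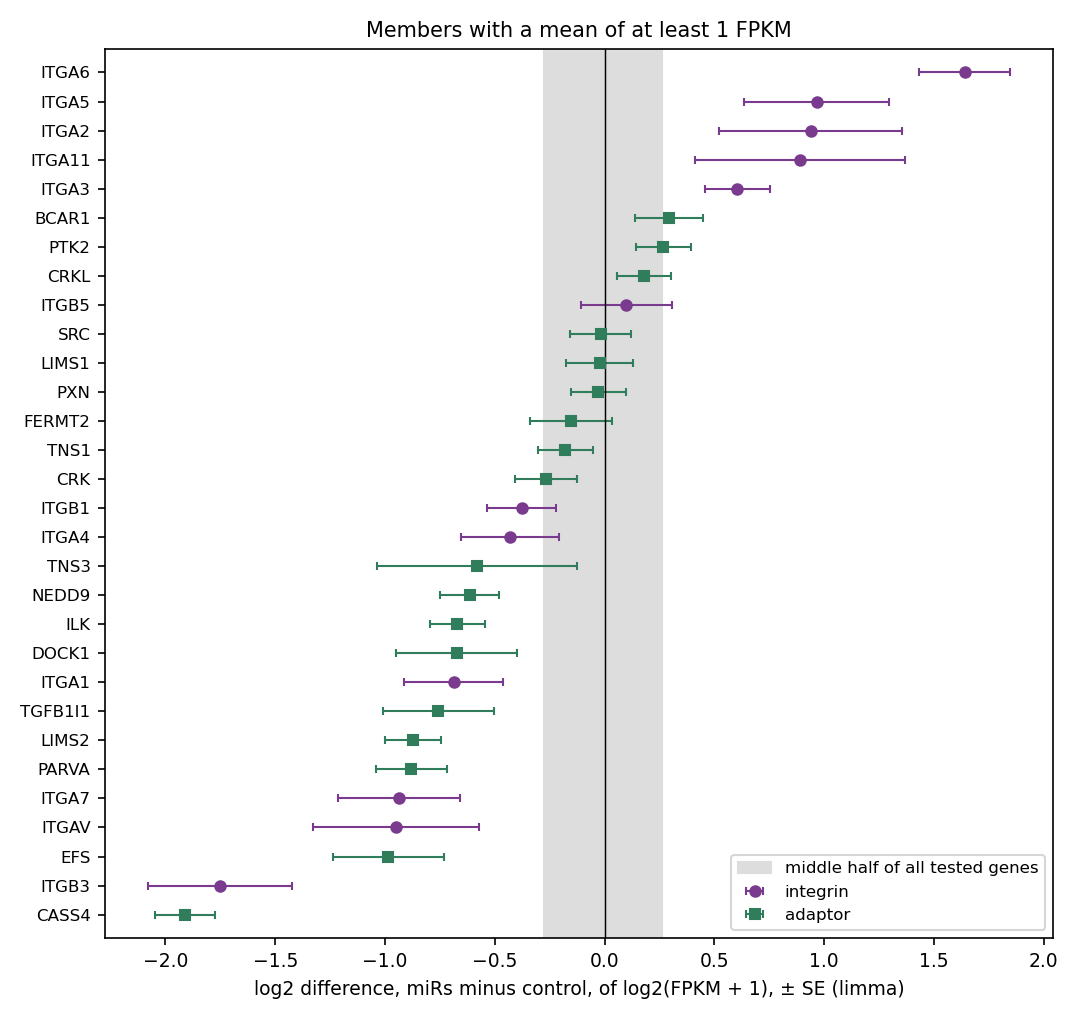
Log2 difference, miRs minus control, of log2(FPKM + 1) for the 30 tested members (integrins as circles, adaptors as squares, bars ± SE from limma, 2 libraries per group). The grey band spans the 25th to 75th percentile of all tested genes, −0.28 to 0.26. ITGA6 stands at the upper end at 1.64, and CASS4 and ITGB3 at the lower end at −1.91 and −1.75.

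Since the microRNAs are not named, the 3′ untranslated regions of all tested genes were ranked for the 7-base words that went with lower levels in miRs. Words pairing with the seeds of 3 microRNAs, either with bases 2 to 8 or with bases 2 to 7 and an A after them, stood near the top of the 16384 words, and these microRNAs are shown because the members' matches are counted for them. They were picked after the ranking had been seen. Their mature sequences from RefSeq (GRCh38.p14) follow, with the seed (bases 2 to 8) in capitals.

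hsa-miR-302a-3p: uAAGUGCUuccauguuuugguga

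hsa-miR-200c-3p: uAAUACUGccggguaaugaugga

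hsa-miR-369-3p: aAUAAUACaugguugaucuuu

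For hsa-miR-302a-3p the words GCACTTA and AGCACTT ranked 1 and 2, for hsa-miR-369-3p TATTATA and GTATTAT ranked 6 and 12, and for hsa-miR-200c-3p CAGTATT and AGTATTA ranked 21 and 23. In each pair, the word that ends in A is the one that pairs with bases 2 to 7. AGTATTA and GTATTAT share the stretch GTATTA and each word was ranked alone, so the ranks for miR-200c-3p and miR-369-3p are not independent. The median log2 difference was −0.11 in the 1035 genes that hold GCACTTA and 0.014 in the others. The shift was smaller for the other words. With and without AGCACTT the medians were −0.047 and 0.019. They were −0.0096 and 0.0066 for TATTATA, −0.0084 and 0.0048 for GTATTAT, −0.012 and 0.0061 for CAGTATT, and −0.0081 and 0.0050 for AGTATTA. Other microRNAs with the same seeds cannot be told apart from these, and the ranking does not show what was transfected. Of the 30 tested members, 16 (53.3%) held at least 1 match to any of the 6 words on the transcript strand of their longest annotated 3′ untranslated region, against 49.96% of all tested genes with such a region. By microRNA, 29.05% of those genes held a match for miR-302a-3p, 26.2% for miR-200c-3p and 25.5% for miR-369-3p, against 7, 12 and 7 of the 30 members. A match was present in 12 of the 21 members with a lower mean log2 level in miRs and in 4 of the 9 with a higher one. The words had been ranked on these same differences, members included, so this split is a description and no test. The members' regions had a median length of 1658 bases, against 1392 bases over all genes, and longer regions hold more matches.

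CASS4, LIMS2, ILK and EFS, which lay among the lower adaptors, held no match in these whole regions, and neither did ITGA3, ITGA5 and ITGA6 among the higher integrins. ITGAV held 5 matches and CRK 6. The stretches below are from the lower members ITGAV, ITGB3 and PARVA, which held 5, 1 and 3 matches. For comparison, ITGA2 is shown, which was higher and held 5. Not every match is printed, and the 3 of ITGA2 for miR-369-3p are left out. All stretches are GENCODE 29 sequence on GRCh38, in the 3′ untranslated exon and on the plus strand, with the match in capitals. The 2 windows of ITGA2 that are shown overlap.

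ITGAV for miR-200c-3p, chr2:186678204-186678230: gcatatagtaAGTATTAcattcttaga

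ITGAV for miR-200c-3p, chr2:186678241-186678267: gtttttagttAGTATTAatttattttc

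ITGAV for miR-369-3p, chr2:186680538-186680564: acaaatatttGTATTATttttgttagc

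ITGB3 for miR-200c-3p, chr17:47310272-47310298: ttacagaggaCAGTATTtgtggggagg

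PARVA for miR-302a-3p, chr11:12530796-12530822: taacaatctgAGCACTTcataaatcca

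PARVA for miR-200c-3p, chr11:12531394-12531420: tttgcatcaaCAGTATTctggagctgt

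ITGA2 for miR-302a-3p, chr5:53093596-53093622: gtatttctcaAGCACTTttaagcaaag

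ITGA2 for miR-200c-3p, chr5:53093584-53093610: tcctggggggCAGTATTtctcaagcac

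Among the laminin-binding alpha subunits, ITGA6 and ITGA3 were higher in miRs and ITGA7 was lower. ITGA6, the alpha chain of the laminin receptor of many epithelia, was at 82.1 and 61.5 FPKM in miRs, against 24.7 and 19.7 FPKM in control. The groups were wide apart, at 71.8 ± 14.6 FPKM in miRs against 22.2 ± 3.52 FPKM in control (SD, n = 2 each), 3.23-fold. Its log2 difference of 1.64 ± 0.21 (SE) had an adjusted p of 0.0656 in limma, above the threshold. ITGA3, which also binds laminin, was at 200 and 208 FPKM in miRs and 147 and 122 FPKM in control (log2 difference 0.60 ± 0.15, adjusted p = 0.115 in limma), so the miRs libraries were nearly equal and both above the controls. ITGA7, the laminin receptor chain best known from muscle, was at 12.3 and 13.3 FPKM in miRs, against 33.4 and 19.4 FPKM in control. Here the controls were the spread-out pair, and the log2 difference was −0.94 ± 0.28 (adjusted p = 0.148 in limma). Of the 5 smooth muscle markers listed, 4 reached 1 FPKM, and the list summed to 600 and 215 FPKM in miRs, against 729 and 451 FPKM in control, most of it from ACTG2. These sums overlapped, but single markers did not. CNN1 was at 11.2 and 17.5 FPKM in miRs, against 104 and 67.3 FPKM in control (log2 difference −2.49 ± 0.31, adjusted p = 0.0635 in limma), and SMTN was also lower in both miRs libraries. DES was the other way, at 7.90 and 2.18 FPKM in miRs, against 0.361 and 0.590 FPKM in control. The part of these markers in the ITGA7 level was not tested.

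ITGB4, the beta partner of ITGA6 in hemidesmosomes of epithelia, was very low, at 0.161 and 0.0460 FPKM in miRs and 0.224 and 0.0628 FPKM in control. Of the 9 epithelial markers listed, 4 reached a mean of 1 FPKM, and the list summed to 196 and 264 FPKM in miRs against 29.3 and 31.2 FPKM in control, nearly all from KRT18, KRT19, KRT8 and CLDN4. Of these, the keratins KRT18 and KRT19 rose in miRs, with log2 differences of 3.07 ± 0.21 and 2.24 ± 0.15 and an adjusted p of 0.0354 for each in limma. EPCAM was at 1.07 and 1.61 FPKM in miRs, against 0 and 0.228 FPKM in control, higher in both miRs libraries but below the minimum for testing. KRT14 was at 1.60 FPKM in miRs replicate 1, with 0 listed for miRs replicate 2 and for both controls. CDH1, KRT5 and SFTPC were listed at 0 in both miRs libraries. The part of these markers in the ITGA6 and ITGA3 levels was not tested.

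The RGD-binding subunits (named for the short peptide motif in fibronectin and vitronectin) diverged. ITGA5, the alpha chain of the classical fibronectin receptor and the most abundant alpha subunit, was at 462 and 253 FPKM in miRs, against 197 and 154 FPKM in control. It averaged 357 ± 148 FPKM in miRs and 176 ± 30.3 FPKM in control (SD, n = 2 each), 2.03-fold, with a log2 difference of 0.97 ± 0.33 and an adjusted p of 0.181 in limma. The 2 miRs libraries lay 1.83-fold apart, both above the controls, and the log2 difference was 0.53 without replicate 1. ITGAV, the alpha chain of the vitronectin receptors, which also activate latent TGF-beta, was at 9.72 and 21.4 FPKM in miRs and 31.1 and 26.9 FPKM in control. Its log2 difference was −0.95 ± 0.38 (adjusted p = 0.221 in limma), and miRs replicate 1 was much the lower. Without that library the log2 difference was −0.42. ITGA8, a receptor chain for nephronectin, was at 0.164 and 0.299 FPKM in miRs, against 0.801 and 0.758 FPKM in control, below the minimum for testing.

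The beta partners of ITGAV did not share a direction. ITGB3, which pairs with ITGAV, was at 2.28 and 0.880 FPKM in miRs and at 8.61 and 6.27 FPKM in control, 4.71-fold lower in miRs. Both miRs libraries lay below both controls, with a log2 difference of −1.75 ± 0.33 and an adjusted p of 0.0880 in limma. ITGB5, another partner of ITGAV, was at 53.8 and 40.8 FPKM in miRs, against 49.0 and 38.8 FPKM in control, and the groups overlapped (log2 difference 0.10 ± 0.21, adjusted p = 0.793). ITGB8, a partner in TGF-beta activation, was at 0.353 and 1.90 FPKM in miRs, on either side of 0.814 and 0.936 FPKM in control, and was not tested.

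The 4 collagen-binding alpha subunits also went apart. ITGA1 was lower, at 33.7 and 23.1 FPKM in miRs against 49.7 and 41.7 FPKM in control (log2 difference −0.69 ± 0.23, adjusted p = 0.171 in limma). ITGA2 was at 43.2 and 18.99 FPKM in miRs, against 16.7 and 12.6 FPKM in control, and ITGA11, the collagen receptor chain of fibroblasts, was at 14.0 and 38.1 FPKM in miRs, against 13.2 and 11.02 FPKM in control. Both were above the controls in each miRs library, but ITGA2 was higher in replicate 1 and ITGA11 in replicate 2, and the log2 differences of 0.94 ± 0.41 and 0.89 ± 0.48 had adjusted p of 0.256 and 0.325 in limma. Without miRs replicate 1 the difference of ITGA2 was 0.37, and without miRs replicate 2 that of ITGA11 was 0.20. ITGA10 was at 1.17 and 1.38 FPKM in miRs and at 0.519 and 0.579 FPKM in control, higher in both but too low to be tested. ITGA4, which with ITGB1 binds fibronectin and the vascular adhesion molecule VCAM1, was at 6.07 and 4.12 FPKM in miRs, against 7.997 and 6.31 FPKM in control. ITGA9 was at most 0.0448 FPKM in any library.

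ITGB1, the beta chain shared by the collagen, laminin and main fibronectin receptors, was the most abundant member in each library, at 764 and 891 FPKM in miRs and 1159 and 991 FPKM in control. The miRs libraries were below both controls, with a log2 difference of −0.38 ± 0.16 and an adjusted p of 0.236 in limma.

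**Figure D2:**
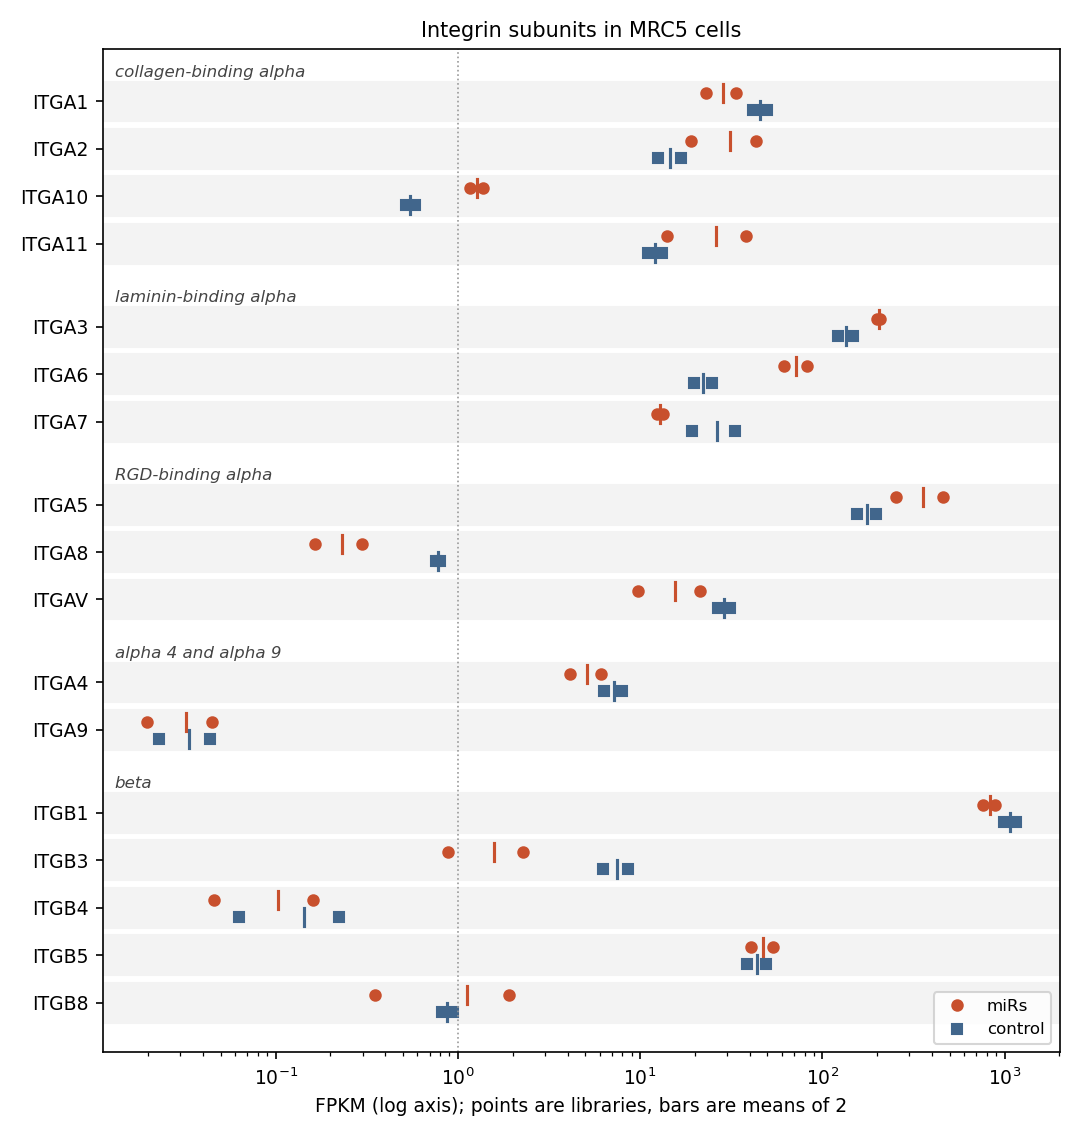
FPKM of the 17 integrin subunits on a log axis, by ligand class, with miRs libraries as circles above control libraries as squares and a bar at each mean of 2. The dotted line marks 1 FPKM. ITGA6 and ITGB3 show the widest gaps between groups among the subunits tested, ITGA6 higher and ITGB3 lower in miRs.

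Summed over the 12 alpha subunits, the level was 865 and 642 FPKM in miRs, against 523 and 415 FPKM in control. Summed over the 5 beta subunits it was 820 and 934 FPKM in miRs, against 1218 and 1037 FPKM in control. The ratio of the alpha to the beta sum was 1.054 and 0.688 in miRs and 0.429 and 0.400 in control, so the groups did not overlap and miRs replicate 1 stood furthest out. ITGB1 made up 93.1% and 95.3% of the beta sum in miRs and 95.2% and 95.6% in control. ITGA3, ITGA5 and ITGA6 together made up 86.1% and 81.2% of the alpha sum in miRs, against 70.6% and 71.3% in control. Each of these subunits was higher in both miRs libraries, and they were grouped with earlier results known. Their larger joint share is therefore no separate result. The share of ITGA6 alone was 9.50% and 9.57% in miRs and 4.73% and 4.76% in control, steady within each group although the sums were not. ITGA1 took a smaller share in miRs, 3.90% and 3.59%, against 9.52% and 10.05% in control, as did ITGA7 and ITGAV, again with no overlap. The share of ITGA3 overlapped, at 23.2% and 32.3% in miRs, against 28.2% and 29.3% in control. By ligand class, the laminin-binding share was 34.1% and 44.0% in miRs, against 39.3% and 38.7% in control. It overlapped, as did the RGD-binding share. The collagen-binding share was lower in miRs, at 10.7% and 12.7%, against 15.3% and 15.9% in control. These sums describe the libraries and were not tested.

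**Figure D3:**
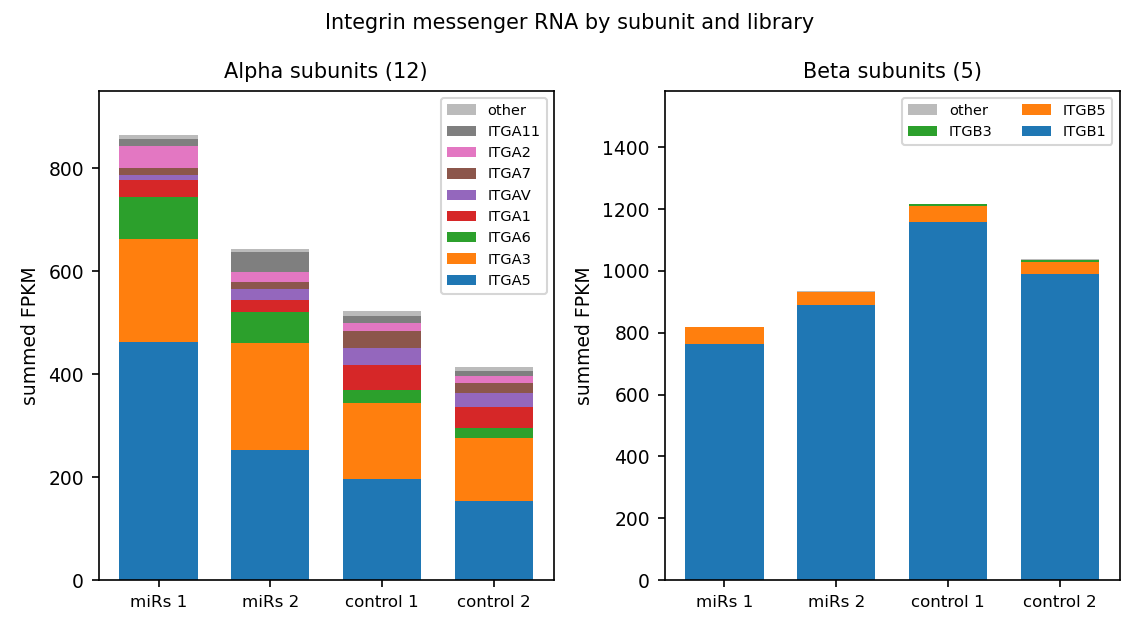
Summed FPKM of the 12 alpha subunits (left) and the 5 beta subunits (right) in each library, stacked by subunit, with both miRs libraries left of both controls. The alpha sum is higher in miRs (865 and 642 FPKM, against 523 and 415 FPKM in control), the beta sum is lower, and ITGB1 fills most of it in every library.

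Among the adaptors, the CAS family of docking proteins, which are phosphorylated at adhesions and then bind CRK, held the member that passed the test. CASS4 was at 1.70 and 1.57 FPKM in miRs, against 8.94 and 8.89 FPKM in control. The replicates of each group were almost equal, and CASS4 fell to 1.64 ± 0.0955 FPKM in miRs, against 8.91 ± 0.0314 FPKM in control (SD, n = 2 each), 5.45-fold, with a log2 difference of −1.91 ± 0.14 (SE) and an adjusted p of 0.0405 in limma. The adjusted p was 0.453 without control replicate 1 and 0.457 without control replicate 2, 0.118 with no minimum FPKM, 0.0580 with a minimum of 5 FPKM and 0.0525 with quantile normalization. The log2 difference lay between −1.87 and −1.95 in all 4 leave-outs. EFS was at 5.33 and 7.26 FPKM in miRs, against 10.8 and 16.3 FPKM in control (log2 difference −0.99 ± 0.25, adjusted p = 0.123 in limma). NEDD9 was at 5.18 and 4.79 FPKM in miRs, against 8.48 and 7.83 FPKM in control (log2 difference −0.61 ± 0.13, adjusted p = 0.101 in limma). BCAR1, the founding and most abundant member of the family, lay the other way, at 64.9 and 78.6 FPKM in miRs, against 61.2 and 55.3 FPKM in control (log2 difference 0.29 ± 0.15, adjusted p = 0.320 in limma). The summed CAS level was 77.1 and 92.2 FPKM in miRs and 89.4 and 88.4 FPKM in control, and BCAR1 made up 84.2% and 85.2% of it in miRs, against 68.4% and 62.6% in control.

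The scaffold of integrin-linked kinase, parvin and PINCH, which ties beta tails to actin, lay lower in 3 of its 4 members here. ILK, the pseudokinase at its centre and the most abundant adaptor, was at 138 and 128 FPKM in miRs, against 220 and 205 FPKM in control (log2 difference −0.67 ± 0.13, adjusted p = 0.0889 in limma). PARVA, the parvin that binds ILK and actin, was at 19.1 and 24.5 FPKM in miRs, against 40.9 and 40.6 FPKM in control (log2 difference −0.88 ± 0.16, adjusted p = 0.0877). In each of these the gap between groups was several times the gap within a group. The PINCH proteins LIMS1 and LIMS2 compete for binding to ILK. LIMS2 was at 9.86 and 10.9 FPKM in miRs, against 19.5 and 20.03 FPKM in control (log2 difference −0.87 ± 0.13, adjusted p = 0.0723 in limma). LIMS1 was at 10.5 and 12.8 FPKM in miRs, against 12.2 and 11.3 FPKM in control, with groups that overlapped. LIMS1 has near-identical copies (LIMS3 and LIMS4), so its level is uncertain.

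Of the paxillin family, PXN, the adaptor that binds focal adhesion kinase, was at 83.3 and 81.7 FPKM in miRs, against 87.9 and 80.5 FPKM in control, with overlapping groups (log2 difference −0.028 ± 0.12, adjusted p = 0.907 in limma). Its relative TGFB1I1 (Hic-5), which is induced by TGF-beta, was at 40.0 and 63.5 FPKM in miRs, against 80.5 and 91.5 FPKM in control (log2 difference −0.76 ± 0.25, adjusted p = 0.175 in limma). Both miRs libraries were below both controls, replicate 1 more so.

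PTK2 and CRKL lay slightly higher in miRs, CRK and DOCK1 lay lower, and SRC overlapped. PTK2, the focal adhesion kinase, was at 31.8 and 31.5 FPKM in miRs, against 27.2 and 25.1 FPKM in control (log2 difference 0.27 ± 0.12, adjusted p = 0.267 in limma), a small gap but with no overlap. SRC, which binds active focal adhesion kinase, was at 11.6 and 13.1 FPKM in miRs and 13.1 and 11.9 FPKM in control, with overlapping groups. CRK was at 28.7 and 30.9 FPKM in miRs, against 38.9 and 33.4 FPKM in control, while its relative CRKL was at 19.4 and 19.5 FPKM in miRs, against 17.6 and 16.6 FPKM in control. These 2 SH2 adaptors thus lay on opposite sides, with adjusted p of 0.316 for CRK and 0.413 for CRKL in limma. DOCK1, the exchange factor that activates RAC1 downstream of CRK, was at 9.89 and 16.9 FPKM in miRs, against 19.6 and 23.0 FPKM in control (log2 difference −0.67 ± 0.28, adjusted p = 0.230 in limma). The groups did not overlap, and without miRs replicate 1 the difference was −0.31.

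FERMT2 (kindlin-2), which activates integrins together with talin, was at 48.7 and 65.8 FPKM in miRs, on both sides of 65.2 and 61.0 FPKM in control. TNS3, a tensin that links adhesions to actin, was at 19.2 and 48.1 FPKM in miRs, against 40.1 and 52.9 FPKM in control, so its lower mean rested on miRs replicate 1. Without that library the log2 difference was 0.060. TNS1 was at 20.7 and 22.6 FPKM in miRs, against 24.5 and 24.7 FPKM in control (log2 difference −0.18 ± 0.12, adjusted p = 0.427 in limma). Its groups did not overlap but lay close.

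**Figure D4:**
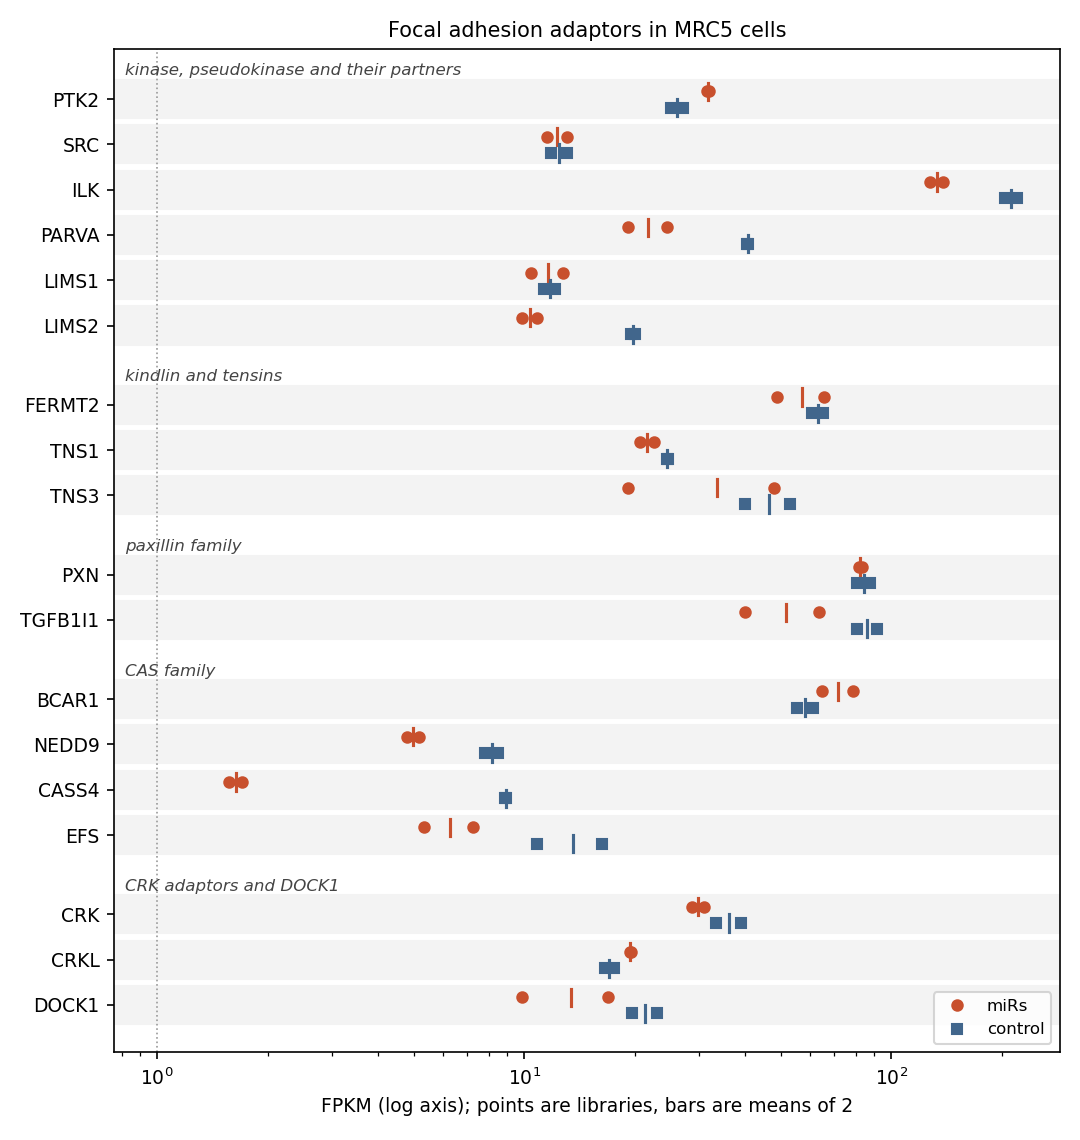
FPKM of the 18 adaptors on a log axis, by family, with miRs libraries as circles above control libraries as squares and a bar at each mean of 2. CASS4 is the furthest apart, at 1.70 and 1.57 FPKM in miRs against 8.94 and 8.89 FPKM in control. PXN, SRC, LIMS1, FERMT2 and TNS3 overlap.

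Other genes of the adhesion pathway were more often lower than higher in miRs, without passing the test. Of 40 further focal adhesion genes tested, 0 passed in limma and 15 had an unadjusted p under 0.05, 4 higher and 11 lower (11.2% and 13.0% of all genes). In 30 of the 40 the groups did not overlap, 7 above and 23 below (59.5% of all genes did not overlap, 29.5% above and 30.0% below), and the median log2 difference was −0.18. ACTN1, the actin crosslinker alpha-actinin, was at 197 and 211 FPKM in miRs, against 399 and 380 FPKM in control (log2 difference −0.93 ± 0.12, adjusted p = 0.0668). RSU1, which binds PINCH proteins, was at 20.1 and 22.8 FPKM in miRs, against 36.7 and 33.0 FPKM in control (log2 difference −0.67 ± 0.14, adjusted p = 0.0954). TES, a LIM protein of adhesions, was higher, at 24.7 and 37.6 FPKM in miRs, against 12.5 and 12.2 FPKM in control, and so was GIT1, a paxillin-binding scaffold, at 23.0 and 24.6 FPKM in miRs, against 15.7 and 15.7 FPKM in control (adjusted p of 0.0877 and 0.0986 in limma).

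Of 10 membrane proteins that associate with integrins, 0 passed in limma, 2 had an unadjusted p under 0.05, both lower (13.0% of all genes had such a p and were lower), and the groups did not overlap in 4, against 59.5% of all genes. The tetraspanin CD151, which binds the laminin receptors, was at 325 and 307 FPKM in miRs, against 530 and 448 FPKM in control, and caveolin CAV1 was at 356 and 340 FPKM in miRs, against 552 and 483 FPKM in control. Their log2 differences were −0.62 ± 0.14 and −0.57 ± 0.13, with adjusted p of 0.107 and 0.110. BSG (basigin) was at 257 and 303 FPKM in miRs, against 360 and 336 FPKM in control, and SLC3A2, the heavy chain of CD98, was at 102 and 192 FPKM in miRs, against 93.7 and 91.4 FPKM in control. Of 9 further integrin subunits, mostly of leukocytes and epithelia, 1 reached the minimum, ITGAE at 0.888 and 2.30 FPKM in miRs and 3.75 and 2.90 FPKM in control.

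The common reference genes ACTB and GAPDH were lower in both miRs libraries as well, without passing the test (adjusted p of 0.0937 and 0.213 in limma). ACTB was at 3022 and 3679 FPKM in miRs, against 5648 and 5619 FPKM in control. GAPDH was at 4736 and 4421 FPKM in miRs, against 6135 and 5526 FPKM in control. The median log2 difference over all tested genes lay between −0.0142 and 0.00429 in every setting tried. Some members share exon positions, in GENCODE 29, with other genes that have levels here, and the strand setting of the counting is not given. On the opposite strand, ILK shares them with TAF10, and ITGA7 with BLOC1S1, BLOC1S1-RDH5 and METTL7B. So do ITGA9 with ITGA9-AS1, LIMS2 with GPR17 and PXN with PXN-AS1, and on the same strand ITGA1 with PELO. TAF10 was at 55.6 and 65.8 FPKM in miRs, against 70.2 and 85.0 FPKM in control, and BLOC1S1 at 75.3 and 94.9 FPKM in miRs, against 113 and 140 FPKM in control, both lower in miRs like their partners ILK and ITGA7. BLOC1S1-RDH5 was higher, at 2.14 and 1.92 FPKM in miRs, against 0.363 and 1.28 FPKM in control. PELO was at 36.7 and 29.1 FPKM in miRs, against 33.6 and 31.5 FPKM in control, a level close to that of ITGA1. ITGA9-AS1 was at 0 and 0.403 FPKM in miRs, against 0.533 and 1.12 FPKM in control. The levels of ITGA1, ILK, ITGA7, ITGA9, LIMS2 and PXN are uncertain to the extent that such reads were shared.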

How the data were processed

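RNA was extracted with an RNeasy kit and made into libraries with a stranded mRNA kit, per the labels' protocols. Each deposited file held FPKM for every symbol in 1 library, per the file headers. Tools listed in the submitters' processing notes are Cuffdiff 2.2.1, TopHat2 2.1.1, SAMtools 0.1.18 and Bowtie2 2.2.8, with build hg19. The gene annotation, strand setting and scaling between libraries are not given in sources used here. Since FPKM is not a count, no count test was run. The 2 libraries per group (2 residual degrees of freedom) limit the precision, and limma also draws each gene's spread from the other genes.

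Files were joined by symbol. The 11860 of 26255 genes whose mean reached 1 FPKM entered limma 3.58.1 (R 4.3.3), with a variance trend, on FPKM after adding 1 and taking log2. Tests were 2-sided with Benjamini-Hochberg adjustment over all tested genes, threshold 0.05. This scale understates differences of low genes. Groups follow the treatment labels, replicate numbers the titles. The fit was tested on simulated data. Alternatives changed the pseudocount (0.1), the minimum (none, or 5 FPKM), the scaling (median of ratios, or quantile), the variance trend or the replicate block, or left out a library. Members, lists and tests were chosen with earlier results of these data known. Full statistics were due to members that passed, members with groups apart and a difference of at least 0.7, and the 3 most abundant of each kind. From each further list up to 4 genes of smallest p with groups apart were named.

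Matches were searched in the longest 3′ untranslated region (at least 20 bases) of each symbol in GENCODE 29 (GRCh38, not the files' build), found for 91.1% of tested genes, with Python 3.11.15, numpy 2.4.6 and pandas 2.3.3. Words were ranked by a regression of the log2 difference on presence, with region length, GC share and mean level as covariates. Genes are not replicates, so the rank is a description. The word ranking and the 3 microRNAs were chosen after seeing the data.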

Additional observations from a re-analysis of the deposited data

How the results depend on the processing

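The count of all genes called, 29, was 6 with quantile normalization, 0 with no minimum FPKM (limma, where 0 of all genes passed) and 99 with the replicate block, and it ranged from 0 to 3746 when 1 library was left out. The adaptor count of 1 was 0 with no minimum FPKM, with a minimum mean of 5 FPKM and with quantile normalization, and ranged from 0 to 9 with 1 library left out. The integrin count of 0 was 1 with the replicate block (ITGA6, adjusted p = 0.0468) and ranged from 0 to 6 with 1 library left out. In these leave-outs the lone library was assumed to vary like the other group. The count was highest without miRs replicate 2 and lowest without control replicate 1. Of 329 member differences under alternatives, 9 reversed, all when 1 library was left out: ITGB5 (−0.096 without miRs replicate 1, −0.065 without control replicate 2, leave-out range −0.096 to 0.30), PXN (0.034 without control replicate 1, range −0.090 to 0.034), LIMS1 (0.025 without control replicate 1, 0.11 without miRs replicate 1, range −0.15 to 0.11), SRC (0.047 without control replicate 1, 0.064 without miRs replicate 1, range −0.099 to 0.064), TNS3 (0.060 without miRs replicate 1, range −1.22 to 0.060) and FERMT2 (0.059 without miRs replicate 1, range −0.37 to 0.059). The ratio of alpha to beta sums kept its direction under quantile normalization. Median-of-ratios rescaling cancels in a ratio taken within a library, so it could not change this result. Leaving out 1 library could not reverse the direction either, because the groups did not overlap in this ratio. The replicate numbers name the libraries only: deviations of same-numbered libraries correlated at 0.201 across genes, and no label says they share a culture. Counts of groups that do not overlap were not recomputed with a library left out. The unknown depth limits what can be said of members under 1 FPKM.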
